A study of Homo sapiens with 30 samples.

Results

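The 10 genes followed here encode transcription factors of luminal prostate epithelium: FOXA1, HOXB13, GATA2, ONECUT2, SOX4, SOX9, TBX3, GRHL2, SPDEF and ELF3. They were taken by name, as 10 of the 22383 genes in the deposited table. The rule sets no threshold on a measured value, but the genes were chosen with earlier results of these data known. Where the table lists several transcripts of one of them, their values were identical, and 1 was kept. All 10 passed the filter on low counts, which left 11425 genes.

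Luminal cells form the secretory layer of the prostate gland, and most prostate cancers keep luminal features. FOXA1 and GATA2 open or prepare chromatin for other factors, and HOXB13 is a posterior homeobox factor of the prostate. ONECUT2, SOX4, SOX9 and TBX3 are developmental factors that can act in prostate tumours. GRHL2, SPDEF and ELF3 maintain epithelial and secretory programmes. RNAs that encode transcription factors are often short-lived, so their abundance can follow changes in transcription closely.

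RNA was measured by SLAM-seq in 22Rv1, an established human cell line of castration-resistant prostate cancer. In SLAM-seq, cells are given 4-thiouridine, which enters new RNA. Iodoacetamide then alkylates it, and sequencing reads the modified bases as T-to-C conversions. The inhibitors KB742 and KI-ARv-03 both target CDK9, the kinase that releases paused RNA polymerase II into elongation.

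The cells received 800 µM 4-thiouridine for 30 min before the 0 h collection, and every later group went on in fresh medium with 800 µM 4-thiouridine. From 0 h the medium also held DMSO, KB742 at 1.2 µM or KI-ARv-03 at 4 µM, and cells were collected at 2, 4 or 8 h. Each of the 10 groups had 3 libraries, 30 in all, made with a 3′ tag kit. The labels do not say that the 3 libraries of a group came from separate cultures, so p-values measure the spread between these libraries, which may be technical. Groups follow the sample titles, because other labels conflict with them. Of the 9 samples titled 4 h, 8 carry another time in the treatment label, and all 9 KB742 samples give the dose there as 12 µM. The description and treatment protocol name DMSO for every sample. Since the compounds were used at different doses, their values are given side by side and were not compared.

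Each gene has a level, in reads scaled to a common library size (CPM), and a conversion level, in percent. The level is relative to the other RNAs of the library, and fewer cells that make an RNA cannot be told apart from less of it per cell. The conversion level is the authors' value; how it was counted is not given in the sources used here, so it is not read as a share of reads. Level differences are on the scale log2(CPM + 1), which understates the change of genes with few reads, and are given ± standard error. Calls come from limma, at a p under 0.05 after Benjamini-Hochberg adjustment across the genes tested. Levels are not compared between genes.

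The libraries held 1416051 to 3971413 reads on genes. At equal depth, 0 h replicate 3 had 12017 genes detected against 13567 and 13471 in its group, and KB742 2 h replicate 2 had 11833 against 13162 and 13023. KI-ARv-03 4 h replicate 1 had a mean conversion, weighted by reads, of 1.18%, against 0.383% and 0.422% in its group and 1.01% to 1.12% with DMSO at 4 h. These 3 libraries stand apart, and many of the results that rest on them are given with and without them.

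The 7 luminal markers listed had reads in every library. The lowest levels of KRT8, KRT18, EPCAM and CDH1 were 75.1, 43.3, 75.2 and 76.1 CPM, and those of KLK3 and TMPRSS2 were 6.02 and 1.54 CPM. With DMSO against 0 h, TMPRSS2 was called lower at 4 h (9.34 to 2.61 CPM in the mean), and EPCAM (116 to 285 CPM) and KRT8 were called higher at 8 h. Of the 3 basal markers, KRT14 had no read in any library, and KRT5 and TP63 had none in 27 and 29 of 30. The summed level of 5 neuroendocrine markers, mostly SYP, ran from 17.9 to 32.3 CPM at 0 h, from 55.8 to 118 CPM with DMSO at 8 h, from 60.8 to 220.4 CPM with KB742 at 8 h and from 31.0 to 245 CPM with KI-ARv-03 at 8 h, with INSM1 at 0 in all 30 libraries. That of 4 stromal, endothelial and blood markers ran from 0.520 to 14.6 CPM at 0 h and from 20.5 to 39.7 CPM with DMSO at 8 h, with PTPRC at 0 in all 30. Their part in the changes below was not tested.

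The region before the transcription start differs among the 10 genes. Those shown are 250 bases before the start from RefSeq (build GRCh38.p14, while the deposited table was made on hg19 and holds no coordinates), 5′ to 3′ on the gene's strand. They were chosen for different behaviour in the main fit. FOXA1 fell in every arm, and ONECUT2 and SPDEF were not called lower with DMSO. ELF3 had the lowest difference from DMSO of the 10 with both inhibitors at 8 h. Capitals mark 3 motifs, searched on either strand. The letters TATAAA were taken as a TATA box. The GC box was read as GGGCGG. The CCAAT box was searched as its name spells it. Promoter entries matched 6 of the 10 genes, with 7 entries. HOXB13, SOX9, TBX3 and GRHL2 are named only.

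FOXA1, chromosome 14, 37595250 to 37595499, minus strand: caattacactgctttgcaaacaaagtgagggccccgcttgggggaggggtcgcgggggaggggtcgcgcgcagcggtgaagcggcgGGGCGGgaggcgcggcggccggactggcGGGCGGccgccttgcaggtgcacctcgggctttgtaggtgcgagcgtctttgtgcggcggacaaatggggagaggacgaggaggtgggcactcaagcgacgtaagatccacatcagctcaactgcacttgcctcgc

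ONECUT2, chromosome 18, 57435124 to 57435373, plus strand: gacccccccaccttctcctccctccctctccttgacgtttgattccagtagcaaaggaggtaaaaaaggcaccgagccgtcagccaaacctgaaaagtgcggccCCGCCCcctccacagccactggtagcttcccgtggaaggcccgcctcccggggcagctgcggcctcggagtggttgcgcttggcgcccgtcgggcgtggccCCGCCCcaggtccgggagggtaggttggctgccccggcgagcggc

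SPDEF, chromosome 6, 34556330 to 34556579, minus strand: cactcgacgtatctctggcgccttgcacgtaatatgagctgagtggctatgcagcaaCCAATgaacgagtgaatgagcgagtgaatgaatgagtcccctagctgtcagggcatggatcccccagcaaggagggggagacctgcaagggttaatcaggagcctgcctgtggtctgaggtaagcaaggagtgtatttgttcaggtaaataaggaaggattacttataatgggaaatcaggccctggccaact

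ELF3, chromosome 1, 202010337 to 202010586, plus strand: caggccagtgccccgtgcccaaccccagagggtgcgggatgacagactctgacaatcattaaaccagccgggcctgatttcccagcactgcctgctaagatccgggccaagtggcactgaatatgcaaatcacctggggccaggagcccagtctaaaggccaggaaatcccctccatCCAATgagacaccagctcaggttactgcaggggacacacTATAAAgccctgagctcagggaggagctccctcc

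FOXA1 and ONECUT2 each held 2 GC boxes, SPDEF held 1 CCAAT box, and ELF3 held 1 TATA box and 1 CCAAT box. SOX4 held 4 CCAAT boxes, and the 2 entries of GATA2 held 1 CCAAT box and 1 GC box. Among 35116 promoters of the same length, 42.6% held a GC box, 32.0% a CCAAT box and 10.7% a TATA box. GC content was 67.2% for FOXA1 and 68.8% for ONECUT2, against 50.8% for SPDEF and 58.4% for ELF3, and the median of all promoters was 58%. These matches describe letters in a window and are not binding sites.

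The 3′ end of an RNA often carries signals for its decay, among them the pentamer ATTTA. In the 3′ untranslated region of each gene (GENCODE transcripts on GRCh38, matched by RefSeq identifier), TBX3 held 7 copies, SOX9 held 8 and FOXA1 held 5, or 4.41, 3.94 and 3.62 per kilobase. The median of 17818 genes was 1.39 per kilobase, and 69.4% held at least 1 copy. With DMSO at 8 h against 0 h, the levels of FOXA1, SOX9 and TBX3 fell by -3.04, -3.96 and -5.18. Those of GRHL2, GATA2 and HOXB13, with fewer copies per kilobase, fell as well, by -4.12, -2.27 and -0.86. The first copy in each of FOXA1, SOX9 and TBX3 is shown with its flanks, with the pentamer in capitals.

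FOXA1, pentamer at base 347 of the untranslated region: ggagggttATTTAaaaaaaca

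SOX9, pentamer at base 152: ttaaagacATTTAagctaaag

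TBX3, pentamer at base 265: gttccaacATTTAtgtccaga

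SPDEF held no copy in 472 bases, GRHL2 held 2 in 3023 and HOXB13 held 2 in 2027. GATA2, SOX4 and ELF3 had 1.15, 1.50 and 1.61 per kilobase, and ONECUT2 had 37 copies in 14574 bases, 2.54 per kilobase. Whether copy number relates to the changes in level was not tested.

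In the DMSO arm, which also held 4-thiouridine in fresh medium, the factors lost RNA relative to the rest of the library. No later group lacked 4-thiouridine, so time, labelling, fresh medium and DMSO cannot be told apart here. At 2, 4 and 8 h, 3, 5 and 6 of the 10 fell against 0 h, and none rose. Over all genes tested, 2.64%, 14.6% and 29.1% fell and 0.0875%, 5.72% and 20% rose. The median difference of the 10 was -1.09, -1.49 and -1.77, against -0.01, 0.01 and -0.14 over all genes. In the main fit GATA2, SOX9 and TBX3 were first called at 2 h, FOXA1 and GRHL2 at 4 h and HOXB13 at 8 h. ONECUT2, SOX4, SPDEF and ELF3 were not called there at any time. The order is one of calls and not of onset. At 2 h every DMSO library of FOXA1 and GRHL2 already lay below 0 h, and DESeq2 called both lower (adjusted p = 0.0134 and 0.0174).

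**Figure D1:**
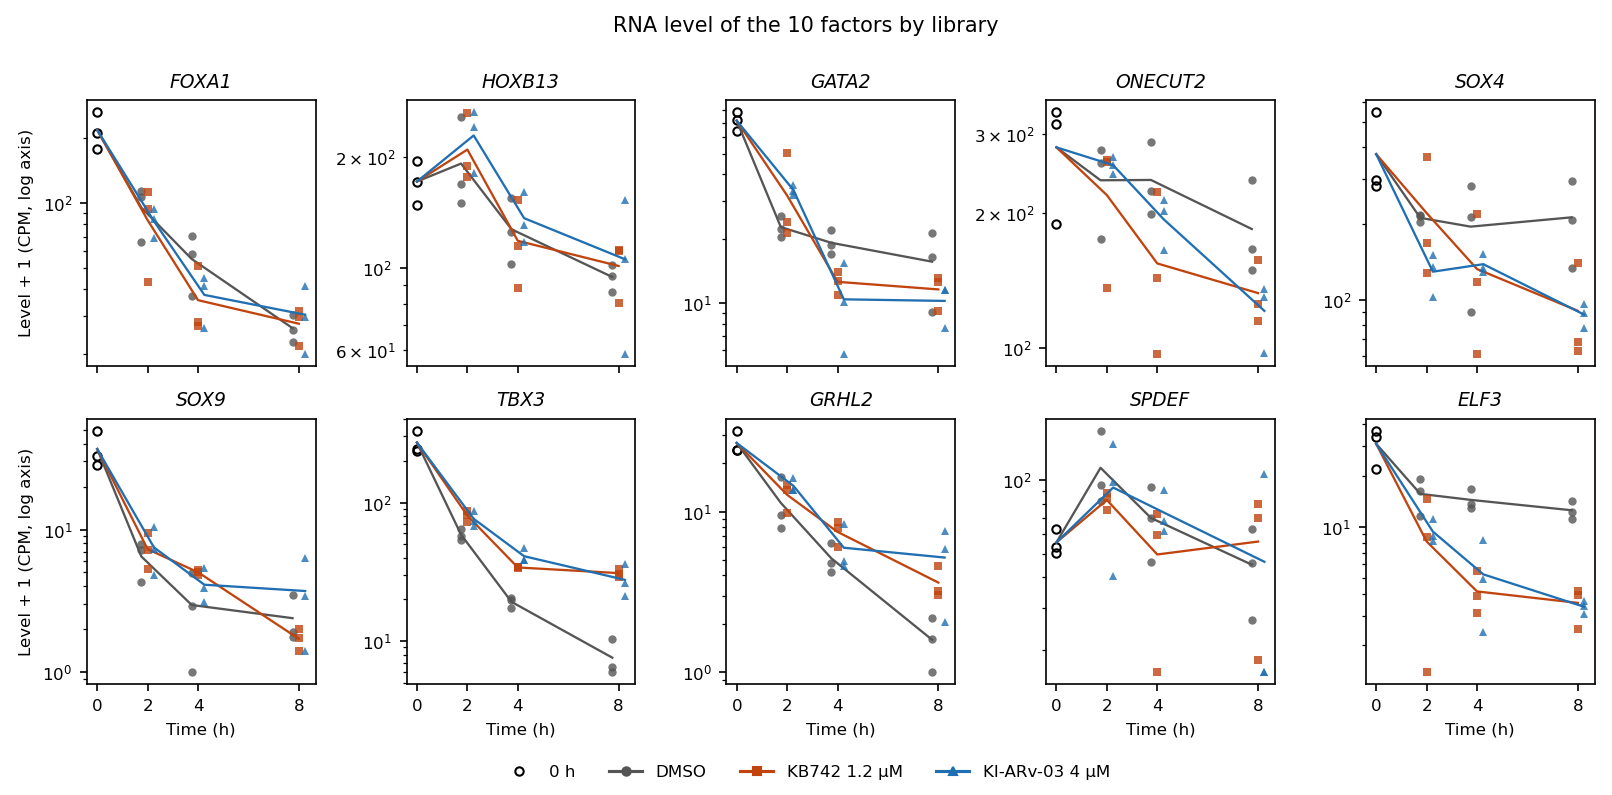
RNA level of each of the 10 genes (CPM + 1, log axis) against time in h, 1 point per library and lines through the group means, with 0 h as open circles and the DMSO, KB742 and KI-ARv-03 arms in grey, red-orange and blue, drawn slightly apart in time. TBX3 falls from 236 to 328 CPM at 0 h to 4.96 to 9.30 CPM with DMSO at 8 h, where all compound libraries lie between 20.1 and 34.8 CPM, and ELF3 shows the reverse order.

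FOXA1, a pioneer factor that opens chromatin for other factors, had 211, 262 and 178 CPM at 0 h. With DMSO it had 65.3, 112 and 105 CPM at 2 h, 69.1, 36.2 and 56.9 CPM at 4 h, and 21.7, 29.4 and 24.9 CPM at 8 h. Every DMSO library lay below every 0 h library from 2 h on. The difference was -1.21 ± 0.35 at 2 h, which was not called (limma, adjusted p = 0.0606), -2.01 ± 0.35 at 4 h (adjusted p = 0.000202) and -3.04 ± 0.35 at 8 h. GATA2, a zinc-finger factor, also fell. It had 71.3, 63.0 and 77.0 CPM at 0 h and 21.2, 19.4 and 24.5 CPM with DMSO at 2 h. The 2 groups do not overlap, and the difference was -1.66 ± 0.35 (limma, adjusted p = 0.00753). It stood at -2.27 ± 0.35 at 8 h, with 8.06, 15.5 and 20.3 CPM.

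HOXB13, the posterior homeobox factor, had 170, 147 and 195 CPM at 0 h and 101, 85.2 and 94.2 CPM with DMSO at 8 h. All 3 of the later libraries were lower, by -0.86 ± 0.29 (limma, adjusted p = 0.0179), and the call was lost without 0 h replicate 3 (-0.76, adjusted p = 0.0628) or without DMSO 8 h replicate 2 (-0.79, adjusted p = 0.0575). The HOXB13 calls against 0 h at 8 h with KB742 (-0.77) and KI-ARv-03 (-0.80) were lost under 10 and 7 of 18 alternatives. For KB742 these included leaving out any 1 of the 0 h or KB742 8 h libraries (adjusted p from 0.0505 to 0.154). For KI-ARv-03 they included leaving out 0 h replicate 1 or 3 (0.0732 and 0.114) and KI-ARv-03 8 h replicate 1 or 3 (0.0578 and 0.278). At 2 h its 3 DMSO libraries, 168, 149 and 256 CPM, overlapped the 0 h libraries.

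TBX3, a T-box repressor, had the largest fall of the 10 at 8 h on the log2(CPM + 1) scale. That scale understates falls to very few reads, as for GRHL2 (25.7 to 0.594 CPM in the mean). TBX3 had 244, 236 and 328 CPM at 0 h and 52.9, 56.2 and 63.9 CPM at 2 h. At 4 h it had 19.6, 18.7 and 16.3 CPM, and at 8 h 4.96, 9.30 and 5.54 CPM. Each group of 3 lay wholly below the one before it. The differences from 0 h were -2.19 ± 0.24, -3.80 ± 0.24 and -5.18 ± 0.24 (limma, adjusted p = 4.10e-06, 1.44e-11 and 1.25e-14). SOX9, an HMG-box factor of progenitor and tumour cells, fell mostly before 4 h. It had 31.7, 27.1 and 48.1 CPM at 0 h, 3.29, 6.21 and 6.92 CPM at 2 h, and 0, 3.98 and 1.90 CPM at 4 h. At 8 h it rested on 1 to 4 reads per library, and its difference of -3.96 ± 0.51 there lay close to the -3.87 ± 0.51 at 4 h.

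SOX4, the HMG-box factor related to SOX9, varied more between libraries. It had 297, 279 and 546 CPM at 0 h and 206, 132 and 294 CPM with DMSO at 8 h, and these groups overlap. The difference of -0.83 ± 0.43 was not called (limma, adjusted p = 0.114). ONECUT2, a CUT homeobox factor, had 315, 334 and 188 CPM at 0 h and 148, 165 and 236 CPM with DMSO at 8 h, which also overlap. Its difference was -0.59 ± 0.30 (limma, adjusted p = 0.106). Without 0 h replicate 3, ONECUT2 was called lower (-0.85, adjusted p = 0.0331).

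Among the epithelial factors, GRHL2, a grainyhead factor that keeps cell junction genes active, fell the most. It had 23.2, 30.8 and 23.2 CPM at 0 h, 5.39, 3.19 and 3.79 CPM with DMSO at 4 h and 0.620, 1.16 and 0 CPM at 8 h, where the 3 libraries held 1, 3 and 0 reads. The differences at 4 and 8 h were -2.39 ± 0.41 and -4.12 ± 0.41 (limma, adjusted p = 0.000189 and 3.38e-08). ELF3, an epithelial ETS factor, had 35.7, 20.8 and 32.8 CPM at 0 h and 11.2, 13.2 and 10.2 CPM with DMSO at 8 h. Every DMSO library was lower, but the difference of -1.27 ± 0.54 just missed the threshold (limma, adjusted p = 0.0523). Several alternatives called ELF3 lower, among them edgeR (adjusted p = 0.0384), DESeq2 (0.0151) and limma without the 3 libraries that stand apart (0.0120). SPDEF, an ETS factor of secretory cells, had 62.2, 52.2 and 49.4 CPM at 0 h and 44.7, 25.6 and 61.9 CPM with DMSO at 8 h. It was not called at any time, with an interval of -1.65 to 0.88 at 8 h.

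The size of these falls depends on the scaling. Scaled by library size or as deposited, the median of all genes moved by -0.73 and -0.59 for DMSO at 8 h against 0 h, and the 2281 genes higher and 3319 lower became 463 and 5219, or 433 and 4903. Both scalings also called SOX4, ONECUT2 and ELF3 lower at 8 h (ONECUT2 -1.39 and -1.32). No called result of the 10 changed its sign under any scaling.

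**Figure D2:**
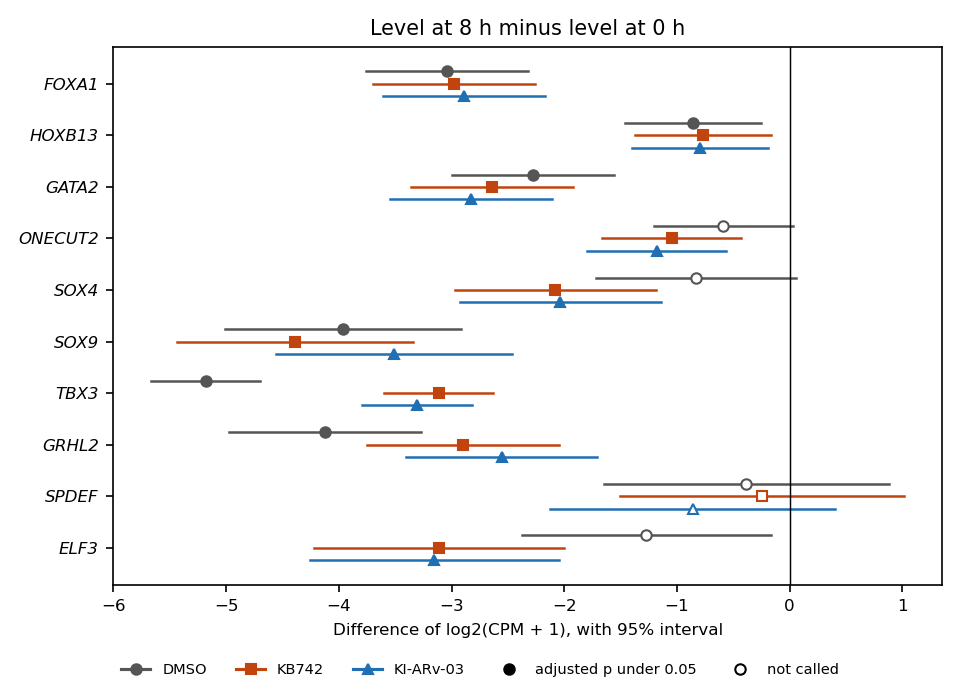
Difference in level between 8 h and 0 h for each of the 10 genes (log2(CPM + 1), point with 95% interval) with DMSO, KB742 and KI-ARv-03, filled where the adjusted p was under 0.05. TBX3 falls furthest with DMSO on this scale (-5.18), which understates falls of genes with few reads, and SPDEF is called in no arm. ONECUT2, SOX4 and ELF3 are filled for both compounds and open for DMSO. None of these 3 was called by limma between a compound and DMSO at 8 h. All 3 were called lower with DMSO when scaled by library size or as deposited.

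With an inhibitor, most of the factors also ended below their 0 h level. With KB742, 5, 8 and 9 of the 10 fell against 0 h at the 3 times, where 3.3%, 12.3% and 22.2% of all genes fell and 0.166%, 2.51% and 12.4% rose. With KI-ARv-03, 3, 7 and 9 of the 10 fell, where 2.88%, 12.7% and 22.5% of all genes fell and 0.481%, 3.78% and 13.5% rose. No member rose. These comparisons share the 0 h libraries with the DMSO course. The median difference of the 10 at 8 h was -2.77 (KB742) and -2.69 (KI-ARv-03), while that of all genes was -0.05 and -0.02.

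FOXA1 came to the same place in all 3 arms. At 8 h it had 30.5, 28.6 and 20.8 CPM with KB742 and 28.7, 19.0 and 40.5 CPM with KI-ARv-03, and these overlap the DMSO libraries. The differences from DMSO were 0.06 (95% interval -0.66 to 0.78) and 0.15 (-0.57 to 0.87), so changes of more than about 2-fold in either direction lie outside both intervals. HOXB13 at 8 h likewise had 79.1, 110 and 111 CPM with KB742 and 105, 152 and 57.4 CPM with KI-ARv-03. Its differences from DMSO were 0.09 (-0.52 to 0.69) and 0.06 (-0.55 to 0.66).

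Against DMSO at the same time, KB742 gave calls for 0, 0 and 1 of the 10 at 2, 4 and 8 h. KI-ARv-03 gave 0, 0 and 2. All were higher at 8 h, where 1.23% and 1.95% of all genes were higher and 0.595% and 0.989% lower. At 2 and 4 h, 0% and 0.035% of all genes were higher with KB742 and 0% and 0.0175% with KI-ARv-03. The share lower was 0.0263% and 0.0788% with KB742, and 0.0263% and 0.0525% with KI-ARv-03. At 2 and 4 h limma gave 1 and 3 of the 10 an unadjusted p under 0.05 with KB742, and 0 and 3 with KI-ARv-03. edgeR's quasi-likelihood test on recovered reads called 0 members at 2 and 4 h with either compound. DESeq2 called 0 with KB742 and, with KI-ARv-03, 0 at 2 h and 1 at 4 h. Both compounds were compared with the same DMSO libraries.

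TBX3 kept more RNA with either inhibitor than with DMSO. At 4 h it had 33.1, 33.1 and 32.8 CPM with KB742 and 37.2, 45.6 and 37.2 CPM with KI-ARv-03, all above the 16.3 to 19.6 CPM of DMSO, and limma called neither difference (0.83 and 1.09, adjusted p = 0.397 and 0.0819). DESeq2 called the KI-ARv-03 difference (1.14, adjusted p = 0.00311), and so did limma with all transcripts of a gene summed (0.0198). TBX3 at 8 h had 32.1, 29.6 and 28.2 CPM with KB742 and 34.8, 20.1 and 25.2 CPM with KI-ARv-03. Every compound library lay above every DMSO library (4.96 to 9.30 CPM). The differences were 2.07 ± 0.24 and 1.87 ± 0.24 (limma, adjusted p = 2.74e-05 and 3.11e-05). Both calls were lost in a fit of the 2 groups alone (adjusted p = 0.114 and 0.160) and kept in the other alternatives run. TBX3 was still below its 0 h level in both arms, by -3.11 ± 0.24 and -3.31 ± 0.24.

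GRHL2 rose against DMSO with KI-ARv-03 on few reads. GRHL2 at 8 h had 4.85, 1.06 and 6.61 CPM with KI-ARv-03 (12, 2 and 16 reads) and 3.61, 2.01 and 2.22 CPM with KB742 (9, 4 and 3 reads). The KB742 libraries all lay above the 0 to 1.16 CPM of DMSO, while 1 KI-ARv-03 library lay within that range. The differences were 1.57 ± 0.41 with KI-ARv-03 (limma, adjusted p = 0.0363) and 1.23 ± 0.41 with KB742 (adjusted p = 0.135). The GRHL2 call with KI-ARv-03 was lost under 9 of 18 alternatives, among them leaving out DMSO 8 h replicate 1 (adjusted p = 0.0627) or replicate 3 (0.204) and KI-ARv-03 8 h replicate 1 (0.141) or replicate 3 (0.254).

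ELF3 had the opposite order. ELF3 at 8 h had 3.21, 1.51 and 2.97 CPM with KB742 and 2.43, 2.64 and 2.06 CPM with KI-ARv-03, all below the 10.2 to 13.2 CPM of DMSO. The differences of -1.84 ± 0.54 and -1.88 ± 0.54 were not called (limma, adjusted p = 0.0803 and 0.0533). DESeq2 called them (-2.17 and -2.27, adjusted p = 0.0368 and 0.0158), and so did the fit without the 3 libraries that stand apart (adjusted p = 0.00308 and 0.00179). Part of the spread of ELF3 came from KB742 2 h replicate 2, at 0.391 CPM against 13.5 and 7.69 CPM in its group.

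SOX4 at 8 h had 62.2, 67.3 and 139 CPM with KB742 and 87.8, 95.1 and 76.8 CPM with KI-ARv-03. The KI-ARv-03 libraries all lay below the 132 to 294 CPM of DMSO, and 1 KB742 library overlapped them. The differences of -1.25 ± 0.43 and -1.20 ± 0.43 were not called (limma, adjusted p = 0.151 and 0.130). SPDEF at 8 h spread widely, with 17.3, 78.8 and 69.0 CPM with KB742 and 15.4, 105 and 15.3 CPM with KI-ARv-03. Its intervals against DMSO, -1.12 to 1.40 and -1.74 to 0.79, leave room for changes of more than 2-fold.

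GATA2, ONECUT2 and SOX9 completed the set. GATA2 at 8 h had 12, 11.5 and 8.16 CPM with KB742 and 10.5, 10.6 and 6.61 CPM with KI-ARv-03, which overlap DMSO. ONECUT2 at 8 h had 156, 125 and 114 CPM with KB742 and 135, 96.7 and 129 CPM with KI-ARv-03. Its difference from DMSO was -0.46 ± 0.30 and -0.59 ± 0.30, neither called, and against 0 h it was called lower with both (-1.05 ± 0.30 and -1.18 ± 0.30). SOX9 stayed at 0.401 to 1.00 CPM with KB742 and 0.413 to 5.29 CPM with KI-ARv-03 at 8 h, on 1 to 10 reads.

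**Figure D3:**
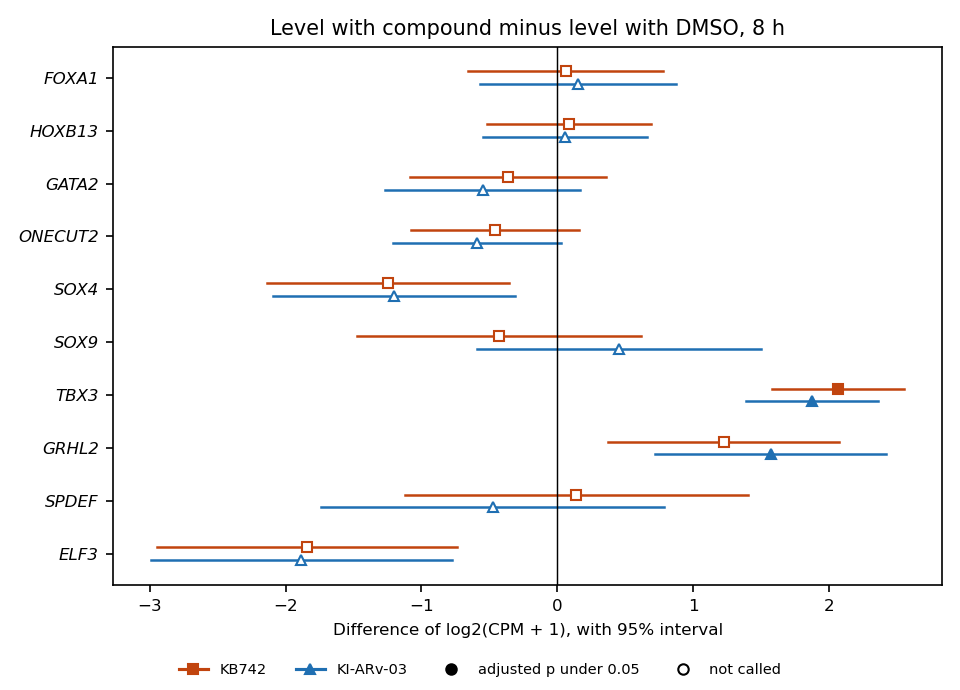
Difference in level between each compound and DMSO at 8 h for the 10 genes (log2(CPM + 1), point with 95% interval), filled where the adjusted p was under 0.05. TBX3 is filled for both compounds and GRHL2 for KI-ARv-03 only (a difference between the compounds was not tested), while ELF3 and SOX4 lie on the lower side without being called.

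Some calls against 0 h rest on the libraries that stand apart. With KB742 at 2 h, FOXA1, GATA2 and ELF3 were called lower (-1.48, -1.27 and -2.42; limma, adjusted p = 0.0148, 0.0388 and 0.00929). Without the 3 libraries the differences were -1.20, -0.97 and -1.33 (adjusted p = 0.131, 0.332 and 0.123). SOX4 at 4 h was called lower with KB742 and KI-ARv-03 (-1.62 and -1.37) and was not called without them (-1.31 and -1.14; limma, adjusted p = 0.0536 and 0.140). SOX9 at 2 h was likewise called with KB742 and KI-ARv-03 (-2.33 and -2.32) and not without them (-1.89 and -2.09; limma, adjusted p = 0.168 and 0.0572).

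Conversion rises as labelled RNA makes up more of the RNA of a gene. It could be tested for a gene where each group had at least 2 values behind 20 or more reads, which was the case for 8, 8 and 6 of the 10 in the DMSO course at 2, 4 and 8 h. SOX9 was tested in no comparison, and GRHL2 only for the compounds at 2 h. Conversion was higher than at 0 h for 6 of 8, 8 of 8 and 6 of 6, where 7.3%, 34.1% and 42.7% of all genes tested were higher and 0.024%, 0.0511% and 0.0309% lower. Differences in conversion were tested on the arcsine square-root scale with limma's variance model. The text gives the conversion level itself, in percent.

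**Figure D4:**
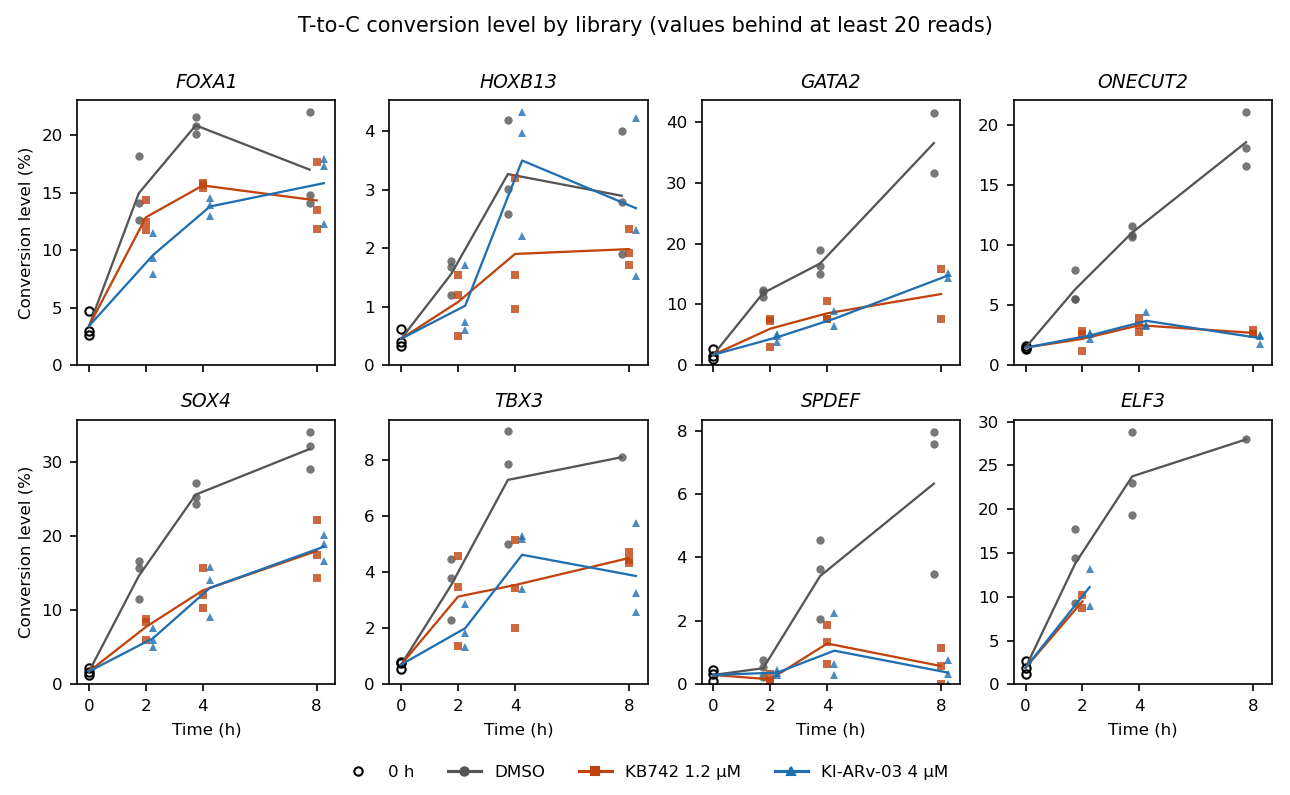
Conversion level (%) of 8 of the genes against time in h, 1 point per library behind at least 20 reads, with lines through the group means and a linear axis that starts at 0 in each panel. ONECUT2 climbs to 16.6% to 21.1% with DMSO at 8 h and stays at 1.80% to 2.89% with the compounds, whereas the FOXA1 libraries of all arms overlap at 8 h.

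With DMSO each factor is compared with its own start. Conversion is not compared between genes, since their share of T differs, from 16.5% (SPDEF) to 46.5% (SOX9) in the last 200 bases. SOX4 went from 2.26%, 1.32% and 1.63% at 0 h to 11.5%, 16.7% and 15.7% at 2 h, with no overlap (limma, adjusted p = 1.82e-06). ELF3 went from 2.63%, 1.91% and 1.15% to 28.8%, 19.4% and 23.0% at 4 h. GATA2 reached 31.6% and 41.6% at 8 h in the 2 libraries with enough reads, from 1.47%, 1.05% and 2.60% at 0 h.

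FOXA1 rose early and then levelled. It had 2.59%, 2.92% and 4.69% at 0 h, 12.6%, 18.1% and 14.1% at 2 h, 20.1%, 20.8% and 21.6% at 4 h and 14.1%, 14.8% and 22.1% at 8 h. All later libraries lay above 0 h, and those at 4 and 8 h overlap. ONECUT2 climbed at each time, from 1.63%, 1.43% and 1.31% at 0 h to 5.55%, 5.54% and 7.92% at 2 h, 10.7%, 11.6% and 10.9% at 4 h and 16.6%, 18.1% and 21.1% at 8 h, without overlap between times. Its level overlapped 0 h throughout, an overlap that rested on 0 h replicate 3 (188 CPM against 315 and 334 CPM). Without that library its level at 8 h was called lower than at 0 h (-0.85, limma, adjusted p = 0.0331).

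HOXB13, SPDEF and TBX3 also gained conversion. HOXB13 went from 0.451% ± 0.150 (SD, n = 3) at 0 h to 3.27% ± 0.832 at 4 h and 2.90% ± 1.06 at 8 h, both called (limma, adjusted p = 0.000371 and 0.000606). For SPDEF the mean was 0.296% ± 0.168 at 0 h and 0.507% ± 0.270 at 2 h, not called, then 3.41% ± 1.25 and 6.33% ± 2.49, both called. TBX3, whose level fell, had 0.704% ± 0.141 at the start, 3.52% ± 1.11 after 2 h and 7.27% ± 2.05 after 4 h. The TBX3 call at 2 h (limma, adjusted p = 0.0184) was lost without 0 h replicate 3 or DMSO 2 h replicate 2. It was also lost without the 3 libraries that stand apart (adjusted p at most 0.0887 in these fits).

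Against DMSO, KB742 lowered conversion for 1 of 8, 4 of 7 and 4 of 6 members tested at 2, 4 and 8 h, and none was higher. Among all genes tested 0.309%, 15.6% and 33.9% were lower and 0%, 0.0131% and 0% higher. KI-ARv-03 lowered it for 2 of 8, 4 of 7 and 4 of 6, where 0.33%, 6.03% and 36.5% of all genes were lower and 0%, 0.0524% and 0.0317% higher. ONECUT2, SOX4, GATA2 and SPDEF were the 4 at 8 h with both compounds, and FOXA1 and HOXB13 were tested and not called.

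ONECUT2 was called lower than DMSO at all 3 times with both compounds. At 2 h it had 2.85%, 1.16% and 2.56% with KB742 and 2.17%, 2.57% and 2.65% with KI-ARv-03, all under the lowest DMSO library at 5.54%. At 8 h it had 2.89%, 2.57% and 2.60% with KB742 and 2.42%, 1.80% and 2.52% with KI-ARv-03, against a lowest DMSO value of 16.6% (limma, adjusted p = 2.52e-12 and 1.60e-12). Against 0 h it was called higher at 4 h with both compounds (limma, adjusted p = 0.0316 and 0.00950) and not called at 8 h (0.185 and 0.708), where all 6 compound libraries still lay above 0 h. The ONECUT2 calls against DMSO at 2 h were lost in a fit of the 2 groups alone (adjusted p = 0.200 and 0.0561). They were also lost on a log2 scale (0.0506 and 0.0894). Its calls against DMSO at 4 and 8 h were kept in every alternative run. Its KB742 call against 0 h at 4 h failed in 6 of the 12 alternatives. The matching KI-ARv-03 call failed in 4 of 12, among them the fit that left out the 3 libraries that stand apart.

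SOX4 gained label with the compounds, but less than with DMSO. SOX4 at 8 h had 17.5%, 14.3% and 22.1% with KB742 and 20.1%, 18.9% and 16.6% with KI-ARv-03, against 29%, 32.1% and 34% with DMSO. No compound library reached the DMSO range, and all lay above the 0 h range (limma, adjusted p against DMSO = 6.94e-05 and 0.000106). On a log2 scale the SOX4 call at 8 h with KI-ARv-03 was lost (adjusted p = 0.0517). GATA2 at 8 h had 7.60% and 15.8% with KB742 and 14.4% and 15.1% with KI-ARv-03, on 2 libraries per group, all under the 31.6% and 41.6% of DMSO (limma, adjusted p = 1.38e-05 and 7.78e-05). On a log2 scale both GATA2 calls at 8 h were lost (adjusted p = 0.0506 and 0.124).

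SPDEF at 8 h had 0%, 1.15% and 0.578% with KB742 and 0.334%, 0.773% and 0% with KI-ARv-03, against 3.46%, 7.95% and 7.57% with DMSO. The compound libraries lay below all DMSO libraries (limma, adjusted p = 3.02e-05 and 9.93e-06) and overlapped the 0.116% to 0.448% of 0 h. At 4 h the SPDEF libraries with KB742 (0.646% to 1.87%) all lay above 0 h, without being called. The SPDEF level was not called in any comparison with all libraries. Without KI-ARv-03 8 h replicate 2 it was called lower than 0 h with KI-ARv-03 at 8 h (-1.76, adjusted p = 0.0195, against -0.86 with it).

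FOXA1 was not called against DMSO at 8 h with either compound (limma, adjusted p = 0.282 and 0.666). FOXA1 at 8 h had 13.5%, 11.8% and 17.6% with KB742 and 17.3%, 12.3% and 17.9% with KI-ARv-03, which overlap the 14.1% to 22.1% of DMSO and lie above 0 h in all 6 libraries. At 4 h the FOXA1 libraries with KB742 (15.4% to 15.8%) and KI-ARv-03 (13% to 14.5%) all lay under the lowest DMSO value of 20.1%. The KI-ARv-03 difference was called (limma, adjusted p = 0.0288) and lost under 7 of 12 alternatives, with adjusted p from 0.0569 to 0.470. The KB742 difference was not called (0.0731), but fitting only these groups (0.0257) or asking for at least 50 reads (0.0203) gave a call.

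SOX4, GATA2 and TBX3 had further calls at 4 h. SOX4 had 10.2%, 12.1% and 15.7% with KB742 and 9.03%, 14.1% and 15.9% with KI-ARv-03, all under the 24.3% to 27.2% of DMSO (limma, adjusted p = 0.000288 and 0.000370), and only the KI-ARv-03 call was lost under an alternative, on a log2 scale (0.138). GATA2 had 7.53% to 10.5% with KB742 and 6.45% and 8.85% with KI-ARv-03, against 15.0% to 18.9% with DMSO (limma, adjusted p = 0.0169 and 0.0262). TBX3 had 2.01%, 3.44% and 5.14% with KB742, which overlap the 5% to 9% of DMSO (limma, adjusted p = 0.0334). The GATA2 calls and the TBX3 call were lost under 5 of 11, 6 of 8 and 6 of 11 alternatives. SOX4 at 2 h with KI-ARv-03 (5.02% to 7.64% against 11.5% to 16.7%) was called (limma, adjusted p = 0.0129) and lost under 6 of 12, among them leaving out KI-ARv-03 2 h replicate 2 (0.121). HOXB13 was called against DMSO at no time.

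Against 0 h, conversion was higher for 2 of 9, 5 of 7 and 4 of 7 members with KB742, where 0.505%, 1.85% and 2.41% of all genes tested were higher and 0%, 0.0247% and 0.0144% lower. With KI-ARv-03 it was higher for 1 of 9, 6 of 7 and 5 of 7, where 0.194%, 3.36% and 1.96% of all genes were higher and 0%, 0% and 0.0408% lower. Over the 3 times the KI-ARv-03 calls numbered 12, and 6 without the 3 libraries that stand apart. FOXA1, SOX4, GATA2 and TBX3 were called at both 4 and 8 h with both compounds. For TBX3, 3 of these 4 calls were lost without those libraries (limma, adjusted p = 0.134 with KB742 at 4 h, 0.117 and 0.0729 with KI-ARv-03 at 4 and 8 h). The TBX3 call with KB742 at 4 h was lost under 9 of 12 alternatives, and the GATA2 calls at 4 h under 4 of 11 and 4 of 8. The HOXB13 call with KI-ARv-03 at 4 h was lost only without the 3 libraries that stand apart (adjusted p = 0.0511). The FOXA1 call with KI-ARv-03 at 2 h was lost under 8 of 12 alternatives, the fit without those libraries among them.

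The product of level and conversion (CPM times conversion as a fraction), with no test, shows both measures together. For ONECUT2 it rose from 4.13 ± 1.46 (SD, n = 3) at 0 h to 34.7 ± 13.3 with DMSO at 8 h, and was 3.56 ± 0.837 with KB742 and 2.75 ± 0.873 with KI-ARv-03. The FOXA1 product started at 7.16 ± 1.50 and did not move in one direction with DMSO. Its DMSO means ran 14.5 ± 6.09 (2 h), 11.3 ± 3.31 (4 h) and 4.31 ± 1.21 (8 h). The KB742 means in the same order were 10.6 ± 4.64, 5.41 ± 2.19 and 3.72 ± 0.376. Those of KI-ARv-03 were 7.87 ± 2.41, 5.05 ± 1.45 and 4.85 ± 2.45.

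Many other epithelial and prostate transcription factors also fell with DMSO. Of 20 in a second list, 16 were tested, and 3, 8 and 10 fell against 0 h at 2, 4 and 8 h, with HES6 alone higher, at 8 h (1.23). Over all genes 2.64%, 14.6% and 29.1% fell, and 20% rose at 8 h. Their median difference at 8 h was -1.28. XBP1, a factor of secretory cells, changed by -2.40. ETS2 (-3.61), NR2F2 (-2.57), GRHL1 (-2.50) and TRPS1 (-2.36) were also lower. Against DMSO at 8 h, HES6 (-1.35) and ZBTB7A (-0.83) were lower with KB742, and HES6 (-1.29) and KLF5 (-1.77) with KI-ARv-03.

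Relatives of the 10 from the same gene families fell with DMSO in most cases where they could be tested. Of 25 listed, 24 were in the table and 12 were tested, and 4, 8 and 9 of them fell with DMSO at 2, 4 and 8 h (median at 8 h -2.16), beside the same 2.64%, 14.6% and 29.1% of all genes. ELF2 and SOX13 changed by -3.22 and -3.20 at 8 h and GATA6 by -2.73 at 4 h. A gene high only at 0 h could pass the filter on low counts, which favours falls among the genes tested. GATA6 had 20 to 29 reads per library at 0 h and at most 8 later. None of the 12 was called against DMSO at 8 h with either compound, where few of all genes were called. With KB742 1.23% of all genes were higher and 0.595% lower, and with KI-ARv-03 1.95% and 0.989%. FOXA2, FOXA3 and ONECUT1 had at most 2 reads in any library. Of the antisense neighbours listed, SOX9-AS1 was in the table, with 4 to 37 reads, and it was higher with DMSO at 8 h (1.00) while SOX9 was lower. Whether counting used strand is not given in the sources used here.

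As a description over the 10 group means, the genes whose log2 level ran most like FOXA1 included PIGA (Pearson r 0.99). For TBX3 they were CHPF2 and CSRNP2 (both 0.99), for ELF3 LPIN1 and CKMT2-AS1 (both 0.98), and for ONECUT2 TAF8 and CDC42EP4 (both 0.97). Among the 10 factors themselves FOXA1 ran most like GATA2 (0.94) and least like SPDEF (0.57). The 10 points share the same libraries, and the 0 h group weighs on each.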

How the data were processed

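Per the labels' protocols, RNA of 22Rv1 cells was labelled with 4-thiouridine, treated with iodoacetamide and sequenced as 3′ tags. Per the submitters' processing notes, reads were placed on hg19. For the aligner and conversion caller: not given in the sources used here. The authors deposited 1 table of 85618 RefSeq rows with, per sample, a CPM signal and a conversion fraction. Deposited CPM sums differ between libraries, and 100% of values above 0 were whole multiples of one step within 0.05, so reads were recovered. Of 50925 identifiers, 99.2% matched a symbol. The members and lists were chosen with earlier results of these data known. Every member is described, and a list gene is named by its call. Some genes of the lists are not reported here.

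Levels are recovered reads as CPM rescaled by TMM factors, as log2 with a pseudocount of 1. Genes passing filterByExpr (minimum count 10) were fitted with limma 3.58.1 (edgeR 4.0.16, R 4.3.3) over all 30 libraries. Adjusted p is Benjamini-Hochberg over all genes. On recovered reads edgeR called 117 and 225 genes against DMSO at 8 h with KB742 and KI-ARv-03, limma 209 and 336. Conversion, in percent in the text, was tested as its arcsine square root, with values behind fewer than 20 reads missing. The tests were checked on simulated data. Alternatives changed scaling, pseudocount, filter, tool (DESeq2 1.42.0), transcript choice, conversion scale and read minimum, left out libraries or added the replicate number. The ERCC spike-in named in the labels was not analysed here.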

Additional observations from a re-analysis of the deposited data

Results flagged for a closer look

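GATA2 level with KI-ARv-03 against DMSO moved in opposite directions at 2 and 4 h. At 2 h all 3 libraries (32.5, 34.8 and 31.2 CPM) lay above all 3 DMSO libraries (21.2, 19.4 and 24.5 CPM), a difference of 0.58. At 4 h all 3 (9.13, 4.78 and 14.3 CPM) lay below DMSO (17.6, 15.9 and 20.9 CPM), a difference of -0.98. Neither difference was called (limma, adjusted p = 0.999 and 0.817), and the difference between the times was not tested.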

How the results depend on the processing

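Of 58 called level results of the members, 42 were called under every alternative run, and of 62 called conversion results 36 were. None reversed. Member calls are summed here over 2, 4 and 8 h. In level, DMSO against 0 h gave 14, and 22 with the deposited scaling. KB742 against DMSO gave 1, and 2 with a pseudocount of 0.25, 2 with DESeq2, 0 in a fit of the groups compared alone, 3 without the 3 libraries that stand apart (chosen after seeing the data), and 1 to 3 leaving out 1 library (3 without KB742 2 h replicate 2). KI-ARv-03 against DMSO gave 2, and 1 with the deposited scaling, 1 with no filter, 0 in a fit of the groups alone, and 1 to 3 leaving out 1 library. In conversion, on a log2 scale KB742 against DMSO gave 5 in place of 9 and KI-ARv-03 gave 3 in place of 10. Against 0 h, KB742 gave 7 in place of 11 in a fit of the groups alone, and KI-ARv-03 gave 6 in place of 12 without the 3 libraries. The causes were not tested.

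Same-numbered libraries mostly did not deviate together (correlation over 0.1 in 1 to 3 of 9 pairs per comparison, at most 0.45). These correlations cannot show whether same-numbered libraries were handled together, and the main fit did not pair them. With the replicate number as a block, level calls were 14, 1, 2, 21 and 19 (DMSO against 0 h, each compound against DMSO, each against 0 h, KB742 first), and conversion calls 20, 9, 10, 11 and 13. Against DMSO at 8 h, genes higher and lower were 141 and 68 with KB742 and 223 and 113 with KI-ARv-03; scaled by library size they were 349 and 49, and 379 and 76, and as deposited 209 and 32, and 290 and 43. The median 95% interval over all genes, before adjustment, reached 0.86 on the log2 scale to either side. Changes of a single member smaller than that were mostly not detectable, and some larger ones were not called either. With KI-ARv-03 against DMSO at 8 h these included ELF3 (-1.88) and SOX4 (-1.20). Where a gene has fewer than 20 reads (SOX9, GRHL2 and ELF3 late in the course), conversion could not be used.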
